A study of Mus musculus with 3 samples.

Results

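The mature neutrophils of the day 7 fracture callus were 2077 of the 8178 cells of that library that passed the limits on cell quality (25.4%, exact Clopper-Pearson 95% interval 24.5% to 26.4%). The whole series held 30888 deposited cell barcodes. A cell was taken when at least 500 of every 10000 of its UMIs (unique molecular identifiers, each standing for 1 captured mRNA molecule) came from *S100a8* and *S100a9* together, when *Ngp*, *Camp*, and *Ltf* together gave fewer than 20 per 10000, and when it had no UMI of *Mki67* or *Top2a*. They were set against 2920 day 7 cells with at least 100 UMIs per 10000 from *Ngp*, *Camp*, and *Ltf*, called immature neutrophils here. The 1061 cells from 20 to under 100 per 10000 are called intermediate. The cells were chosen by the levels of these 7 genes, so their levels describe the choice and support nothing else, and every other difference between the classes was read in the cells that the rule had sorted.

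The series held 3 droplet libraries of single cells, 1 each from bone callus at day 7, day 10, and day 14 after femoral fracture in otherwise untreated C57BL/6 mice. The paper reports that the callus was cleaned to take away marrow and was digested with collagenase. Live cells that stained for none of CD45, CD31, and TER119 were sorted, and they were labelled as mesenchymal. These proteins are the surface markers of blood, endothelial, and red cells. There was no uninjured control and no replicate library, and the number of mice behind each library was not given in the sources used here. Cells of 1 library are not replicates, so no p-value is given and every interval covers counting error only.

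Neutrophils are short-lived phagocytes made in the bone marrow. As they mature they fill primary, then secondary, then tertiary granules with antimicrobial proteins, leave the cell cycle, and gain receptors such as *Cxcr2* that let them enter the blood and follow chemokines into injured tissue. At a fracture they are among the earliest cells to enter the hematoma, where they release proteases, reactive oxygen, and cytokines such as interleukin 1 beta, and they die within days. RNA for the secondary granule proteins lactoferrin (*Ltf*), cathelicidin (*Camp*), and neutrophilic granule protein (*Ngp*) is made at the myelocyte and metamyelocyte stages and is lost afterwards, whereas the alarmin subunits *S100a8* and *S100a9* are kept to the end.

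The library label did not match these cells. *Ptprc*, which encodes CD45, was at 18.2 UMIs per 10000 in the mature neutrophils and at 0.185 in 569 mesenchymal cells of the same library, and 99.1% of the mature cells had at least 1 UMI of it. All 11 neutrophil markers were detected. Among those the rule did not use, *Retnlg*, a resistin-like secreted protein, was at 315, *Csf3r*, the receptor for G-CSF, at 15.2, and *Ly6g*, a surface antigen of mouse neutrophils, at 3.01 UMIs per 10000. The same 3 genes were at 2.85, 0.157, and 0.0661 in the mesenchymal cells and at 2.47, 0.139, and 0.0540 in 258 B lineage cells, the levels that free RNA can give. The cells held neutrophil RNA although the sort was for CD45- cells. Of the 2920 immature neutrophils of this library, 33.0% had an *Mki67* or *Top2a* UMI. How many of the neutrophils came from marrow left on the callus was not tested.

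The plot of the sums that chose the cells shows how the classes lay. The median mature cell had 2239 UMIs per 10000 from *S100a8* and *S100a9* and 8.32 from the granule genes, against 2851 and 673 in the immature cells. The granule sum had a median of 2.66 in mesenchymal cells and 3.60 in B lineage cells, so much of the little that the mature cells held was within reach of free RNA. No UMI of the 3 granule genes was found in 150 mature cells (7.22%). Values just inside and just outside the granule threshold were close. The 326 mature cells with a granule sum from 15 to under 20 had *Il1b* at 9.42 and *Retnlg* at 374 UMIs per 10000, and the 182 cells just outside, from 20 to under 25, had 7.11 and 386. At the S100 threshold the sides differed more. The 86 mature cells from 500 to under 750 had *Il1b* at 32.3, *Cxcr2* at 30.7, and *Ptprc* at 28.0, and the 75 cells just outside, from 250 to under 500, had 7.09, 9.05, and 7.75.

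**Figure D1:**
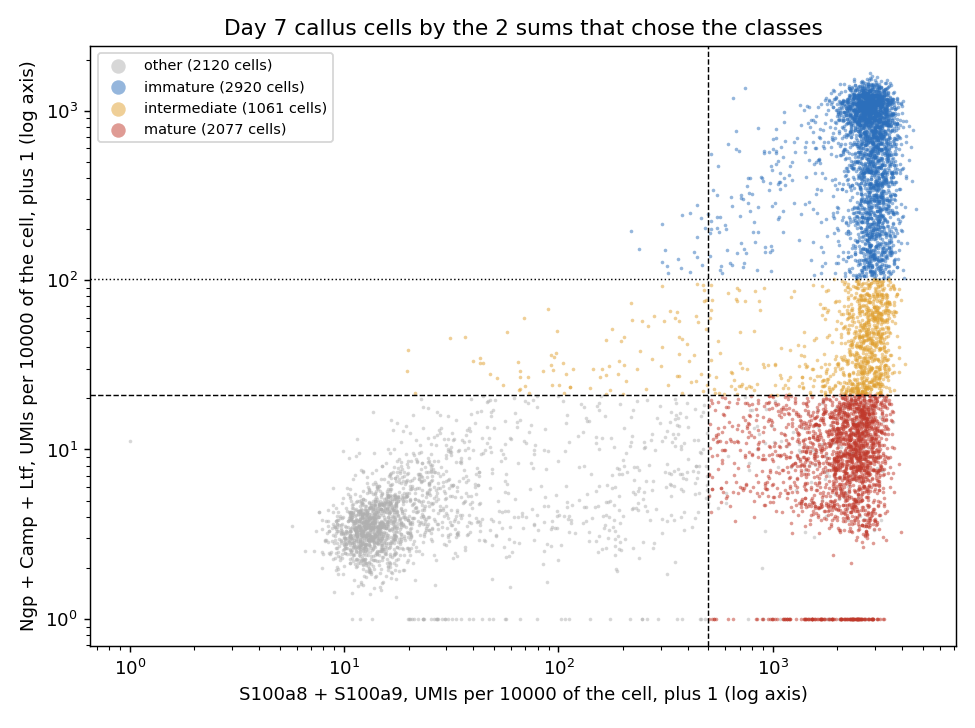
Each point is 1 of the 8178 day 7 cells, placed by the summed UMIs per 10000 of *S100a8* and *S100a9* (x axis, log scale, plus 1) and of *Ngp*, *Camp*, and *Ltf* (y axis, log scale, plus 1), and the dashed and dotted lines are the thresholds. The 2077 mature cells (red) and 2920 immature cells (blue) share the high S100 side and are split by the granule sum, with 1061 intermediate cells (yellow) between them, and gray points in the red field are cells left out for an *Mki67* or *Top2a* UMI.

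The mature cells were small in RNA. Their median was 3085 UMIs (5th to 95th percentile 1829 to 5995) and 1102 genes, against 8680.5 UMIs and 1959 genes in immature cells and 4336 UMIs in intermediate cells. The mean was 3395 UMIs in a mature cell and 12954 in an immature one. The make-up of the RNA also differed. Ribosomal protein genes gave 4.18% of the UMIs in the mature class, 8.35% in the intermediate, and 6.50% in the immature class. Mitochondrial genes gave 0.292%, 0.905%, and 0.790%, and histone genes gave 0.0720%, 0.122%, and 0.306%. The 15 most abundant genes held 36.8% of all UMIs of the mature cells, and *S100a8* and *S100a9*, used by the rule, held 22.4%. The others included *Tmsb4x* and *Actb* of the actin cytoskeleton, the adaptor *Tyrobp*, the calcium-binding *S100a6* and *S100a11*, lysozyme (*Lyz2*), ferritin heavy chain (*Fth1*), and the chemokine *Ccl6*. The weight of *S100a8* and *S100a9* was not particular to mature cells. They were at 1206 and 1357 UMIs per 10000 in immature cells, above the 1043 and 1201 in mature cells.

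The 12 macrophage markers summed to 8.75 UMIs per 10000 in mature and 13.7 in immature cells, and 9 of the 12 were under 0.2 in the mature class. Of that sum 5.49 was *Ly6c2* and 1.80 was *Apoe*, while the defining complement gene *C1qa* was at 0.0908 and *Adgre1* at 0.176. The lower sum in mature cells was due to *Ly6c2*, which was at 13.0 in the immature class. Without it the other 11 summed to 3.26 in mature and 0.609 in immature cells, and 9 of the 11 had the higher level in mature cells, among them *Apoe* (0.253 in immature cells) and *Csf1r*, the receptor for macrophage growth factor, at 0.909 against 0.119. *Csf1r* was seen in 25.04% of mature cells, and after thinning to 1000 UMIs in 8.68% of mature, 1.82% of immature, and 0.176% of mesenchymal cells. The part of macrophage RNA in the differences between the classes was not tested. A sum of 20 or more over all 12 markers, *Ly6c2* among them, was found in 209 mature cells (10.1%). The 95th percentile of that sum was 27.2 in mature and 28.5 in immature cells, and the medians were 5.27 and 13.3. Eosinophil markers summed to 0.495, mast cell or basophil markers to 0.0922, T or NK cell markers to 0.147, endothelial markers to 0.0794, and osteoclast markers to 0.0482. Dendritic cell markers summed to 1.14, B lineage markers to 2.20, and red cell markers to 6.81 (3.96 in immature cells). Mesenchymal markers summed to 7.54 in mature and 38.9 in immature cells. In the immature class 41 cells with at least 100 collagen UMIs per 10000, with a median of 42217 UMIs, held 95.5% of all *Ibsp* UMIs of the class, and 5 mature cells had that much collagen RNA.

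Of 5053 genes with at least 0.2 UMIs per 10000 in either class, 918 were at least 2-fold higher in mature neutrophils (18.2%) and 1253 were at least 2-fold lower (24.8%), and the median log2 ratio of mature over immature was -0.03. The 95% counting interval lay wholly beyond 2-fold for 780 of the higher and 1038 of the lower genes. These are shares of each class's RNA. Counted as UMIs per cell, the median log2 ratio was -1.97, 314 of the 918 higher genes still had more UMIs in a mature cell, 93 had at least 2-fold more, and all 1253 lower genes had fewer. A gene could thus take a larger share of a mature cell's RNA while the cell held fewer copies, and for *Retnlg* the log2 ratio was 1.78 by share and -0.15 by UMIs per cell.

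The 15 genes most raised as a share of RNA are given first. *Wfdc17*, a whey acidic protein of activated phagocytes, was at 7.79 UMIs per 10000 in mature, 1.49 in intermediate, and 0.221 in immature cells, a log2 ratio of 5.14 (95% interval 5.03 to 5.25). *Il1b*, the inflammatory cytokine interleukin 1 beta, was at 12.0, 2.56, and 0.469 (4.67, 4.60 to 4.75), which was 4.06 UMIs in an average mature cell and 0.608 in an average immature one. *Pla2g7*, an enzyme that breaks down platelet-activating factor, was at 5.22, 1.42, and 0.215 (4.60, 4.49 to 4.71). In all 3 the intermediate cells lay between the others.

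The interferon-induced membrane protein *Ifitm1* followed with 14.3, 3.88, and 0.608 UMIs per 10000 and a log2 ratio of 4.56. The signal-regulatory receptor *Sirpb1b* had 4.54, the chemokine *Ccl6* 4.35, the tetraspanin *Tspan13* 4.31, and the junctional adhesion protein *Jaml* 4.22. *St8sia4*, a sialyltransferase, had 4.17, the C-type lectin receptor *Clec4d* 3.98, the class I molecule *H2-Q10* 3.86, and *Fgl2*, a fibrinogen-like protein, 3.81. The chemokine *Cxcl2* had 3.74, the Schlafen gene *Slfn5* 3.57, and the gene model *Gm16556* 3.55. Each of these 15 genes also had more UMIs per cell in mature neutrophils, by a log2 ratio of 1.62 for *Gm16556* up to 3.21 for *Wfdc17*. After every cell was thinned to 1000 UMIs, *Ccl6* was seen in 91.3% of 2074 mature cells (90.0% to 92.5%), *Il1b* in 52.9%, *Ifitm1* in 46.1%, *Wfdc17* in 29.7%, and *Cxcl2* in 20.9%. The same genes were seen in 18.0%, 3.74%, 5.90%, 1.89%, and 3.12% of the immature cells and in 2.11%, 1.23%, 1.58%, 0.703%, and 1.23% of the mesenchymal cells. Before thinning, at median depths of 3085, 8680.5, and 33235 UMIs, *Il1b* was seen in 73.0% of mature and 11.4% of immature cells.

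The 15 genes most reduced follow. *Fcnb*, a ficolin of immature granulocytes, was at 0.0496 UMIs per 10000 in mature, 1.77 in intermediate, and 5.20 in immature cells (log2 ratio -6.71, -7.23 to -6.23). *Chil3*, a chitinase-like secreted protein, was at 1.13, 2.95, and 59.5 (-5.72), the leukocyte elastase inhibitor *Serpinb1a* at 0.340, 2.80, and 7.54 (-4.47), and *Lta4h*, the enzyme that makes leukotriene B4, at 0.183, 1.03, and 3.56 (-4.28). *Cebpe*, the transcription factor that drives secondary granule genes, was at 0.396, 1.17, and 5.56 (-3.81). The other 10 were *Cenpf*, *Ube2c*, *Hist1h2ae*, *Pclaf*, *Hist1h1b*, *H2afx*, *Stmn1*, *Nucks1*, *Tuba1b*, and *Hist1h2ap*, with log2 ratios from -6.15 for *Cenpf* to -3.84 for *Hist1h2ap*. These 10 are taken up again with the cell cycle genes, because none of them was 2-fold lower against the immature cells that had no *Mki67* or *Top2a* UMI and an S100 sum of at least 500. The plot of these 30 genes shows the intermediate cells between the other classes for each of them.

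**Figure D2:**
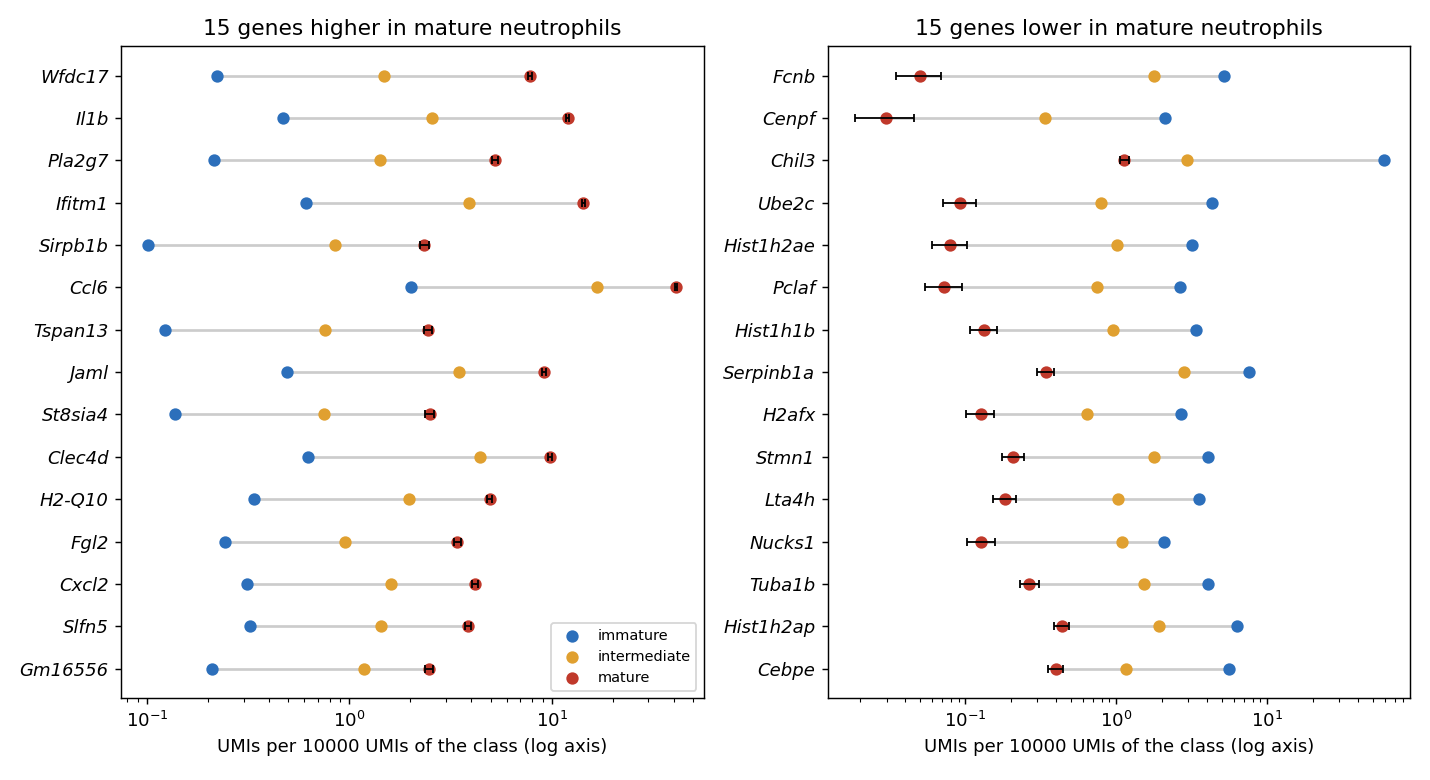
UMIs per 10000 UMIs of the class (x axis, log scale) of the 15 genes with the largest and the 15 with the smallest ratio, in mature (red, bars give the 95% Poisson interval), intermediate (yellow), and immature neutrophils (blue). *Wfdc17* runs from 0.221 in immature to 7.79 in mature cells and *Fcnb* from 5.20 down to 0.0496, and every intermediate value lies between the other classes.

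Cytokines and chemokines, the signals by which neutrophils call and instruct other cells, stood highest of the 22 gene lists. Of 13 measured genes 10 were at least 2-fold higher in mature neutrophils and none was 2-fold lower, with a median log2 ratio of 2.49 against -0.03 over all genes. Over all compared genes, 18.2% were at least 2-fold higher and 24.8% at least 2-fold lower. The counts of the lists below, where from the same comparison, are to be read beside those shares. Against the immature cells with no cycling UMI and an S100 sum of at least 500, the shares were 14% and 9.27%. In cells of 2000 to 8000 UMIs they were 11.6% and 8.09%. Besides *Il1b*, *Ccl6*, and *Cxcl2*, the macrophage inflammatory proteins *Ccl3* and *Ccl4* had log2 ratios of 4.65 and 4.98, at 0.645 and 0.458 UMIs per 10000. *Csf1*, the macrophage growth factor, had 2.87 and *Tnfsf14*, the ligand LIGHT, 2.49. *Osm*, oncostatin M, which acts on osteoblast lineage cells, was at 2.33 in mature and 0.538 in immature cells (2.12), and *Il1rn*, the antagonist of interleukin 1, at 1.42 and 0.498 (1.52). *Tnf* went the other way by a little, with 0.186 against 0.214 (log2 ratio -0.20, -0.48 to 0.07), and its interval held 0. *Il6* was at 0.00142 and *Cxcl1* at 0.00425, both under the level at which a gene was compared.

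*Cxcl2*, which binds *Cxcr2* and draws further neutrophils, is shown with its promoter because it was among the 15 most raised genes and its start region holds matches to the binding pattern of NF-kB, the factor that acts downstream of interleukin 1 receptors. The sequence is from RefSeq on GRCm38.p6, chr5:90903649-90903948, plus strand, and runs from 250 bases before the start to 50 after it. Capitals mark 2 overlapping matches, at -97 to -88 and at -96 to -87 from the start, on opposite strands.
Cxcl2: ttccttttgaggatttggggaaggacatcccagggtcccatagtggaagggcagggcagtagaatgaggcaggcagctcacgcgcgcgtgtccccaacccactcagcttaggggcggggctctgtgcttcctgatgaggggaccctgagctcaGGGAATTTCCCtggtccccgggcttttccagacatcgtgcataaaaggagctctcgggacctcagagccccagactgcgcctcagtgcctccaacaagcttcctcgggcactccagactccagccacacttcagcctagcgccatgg
A match to this pattern of 10 bases, read on both strands, was found in 2 of the 14 promoters at hand for the 15 raised genes (14.3%), in 13.2% of the promoters of the 918 higher genes, in 10.8% of those of all compared genes, and in 8.46% of all 32851 promoters. A match is a stretch of letters and says nothing on whether the factor was bound.

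Receptors for chemoattractants and growth factors were raised in 14 of 19 measured genes and reduced in 1 (median log2 ratio 1.53). *Cxcr2*, the receptor for *Cxcl1* and *Cxcl2*, was at 23.5 UMIs per 10000 in mature, 12.8 in intermediate, and 4.0 in immature cells (2.56, 2.53 to 2.59). *Csf3r* was at 15.2, 5.85, and 1.79 (3.08). *Ccr1*, a receptor for *Ccl3* and *Ccl6*, was at 9.71 against 1.54 (2.66), the TNF receptor *Tnfrsf1b* had a log2 ratio of 2.44, and the decoy receptor *Il1r2* had 1.99. The formyl peptide receptor *Fpr1* had 1.5 and the complement receptor *C5ar1* 1.25. *Cxcr4*, which holds neutrophils in the marrow, was nearly level at 1.91 against 1.53 (0.32), and *Ltb4r1*, the leukotriene B4 receptor, was at 0.739 against 3.31 (-2.16). The mature cells thus held more RNA, as a share, for receptors of chemokines, formyl peptides, and G-CSF, and less for the leukotriene B4 receptor and for the enzyme *Lta4h* that makes its ligand.

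Receptors for microbial products were raised in 10 of 13 measured genes, with none 2-fold lower (median 1.70). *Nlrp3*, the sensor of the inflammasome that matures interleukin 1 beta, was at 1.44 in mature and 0.0849 in immature cells (log2 ratio 4.09). *Clec4d* and *Clec4e*, lectins for fungal and mycobacterial glycolipids, had 3.98 and 1.97. *Tlr2* had 2.18 and *Tlr4* 1.70, whereas *Trem3* had -0.74 and *Clec5a* -0.50.

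Fc and inhibitory receptors were 2-fold higher in 8 of 15 genes and lower in 2 (median 1.13), but in cells of 2000 to 8000 UMIs only 1 of 14 was higher and none lower (median 0.52). The low-affinity immunoglobulin receptors *Fcgr3* and *Fcgr4* had log2 ratios of 1.42 and 1.13, the inhibitory *Fcgr2b* had -1.67, and *Clec12a* had -1.13. All 5 measured genes of the Cd300 family of paired receptors and all 3 of the Sirp family were at least 2-fold higher, as were 9 of 11 genes of the major histocompatibility complex (symbols starting H2-). Members of these families are close in sequence, and how reads shared between them were counted is not given in the sources used here.

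Interferon-stimulated genes were raised in 21 of 27, with none 2-fold lower (median log2 ratio 1.77). *Ifit3*, an antiviral protein, was at 1.89 in mature, 0.415 in intermediate, and 0.0867 in immature cells (4.45, 4.27 to 4.63). *Ifit3b* had 3.96, *Oasl1* 3.55, the guanylate-binding protein *Gbp2* 3.21, *Ifit1* 2.72, *Isg15* 2.47, and *Rsad2* 2.33. *Bst2* was the lowest with -0.39. All 5 Schlafen genes (symbols starting Slfn) were at least 2-fold higher. After thinning, *Ifit3* was seen in 12.4% of mature, 1.06% of immature, and 0.351% of mesenchymal cells.

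The promoter of *Ifit3* is shown because it holds 3 copies of GAAANNGAA, the core of the element bound by interferon-activated factors. It is on chr19:34583279-34583578 of GRCm38.p6, plus strand, from RefSeq. Capitals mark the matches, which are read from the opposite strand.
Ifit3: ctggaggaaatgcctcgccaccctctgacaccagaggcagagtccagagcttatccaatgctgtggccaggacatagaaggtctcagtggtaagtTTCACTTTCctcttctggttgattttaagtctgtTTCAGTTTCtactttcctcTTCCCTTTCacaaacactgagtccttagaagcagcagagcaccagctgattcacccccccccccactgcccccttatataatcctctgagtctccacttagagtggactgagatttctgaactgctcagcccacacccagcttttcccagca
Promoters were at hand for 26 of the 30 genes of the interferon list, 28 promoters in all, and 14 of them (50%) held this motif on either strand. Of all 32851 promoters 8.56% held it, as did 10.48% of the promoters of the 918 higher genes and 7.51% of those of the 1253 lower genes.

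Genes of the NF-kB pathway were raised in 9 of 13 with none 2-fold lower (median 1.73). *Bcl3* had a log2 ratio of 2.67, the mRNA decay factor *Zfp36* 2.21, at 14.9 against 3.22 UMIs per 10000, and *Tnfaip2* 1.88. The inhibitor *Nfkbia* had 0.36 and the subunit *Nfkb1* -0.11. Among 23 transcription factors, 15 were raised and 3 reduced (median 1.2). The raised ones included the AP-1 members *Junb* at 18.9 against 1.98 (3.26), *Fos* (2.03), and *Fosl2* (1.98), as well as *Cebpb* (2.41), which drives emergency granulopoiesis, and *Egr1* (2.31). The reduced ones were *Gfi1* (-4.38), *Cebpe* (-3.81), and *Myb* (-2.86), all factors of granulocyte progenitors.

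Survival and death genes were raised in 9 of 16 and reduced in 1 (median 1.27). *Mcl1*, the BCL-2 family member on which neutrophils depend, was at 17.2 against 3.34 UMIs per 10000 (2.36). The kinase *Pim1* had 2.80 and the death receptor *Fas* 2.38. The pro-apoptotic *Pmaip1* had 3.73, at 0.350 against 0.0264, and *Casp8* had -1.02. Genes that protect from death and genes that promote it were therefore both among the raised ones.

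Granule genes differed between the fixed lists of granule types. Primary granule genes were 2-fold lower in 7 of 8, and the exception was *Srgn*, the proteoglycan that packs granules and is also made in other cells, at 28.7 against 3.14 (log2 ratio 3.19). *Elane* was at 1.10 against 9.56 (-3.12) and *Mpo* at 0.993 against 3.68 (-1.89). That difference rested on few immature cells. After thinning, *Elane* was seen in 10.46% of mature and 9.68% of immature cells and *Mpo* in 9.35% and 7.69%, and in mesenchymal cells, which do not make them, they were seen in 4.22% and 4.75%. Against the 1951 immature cells with no *Mki67* or *Top2a* UMI and an S100 sum of at least 500, 5 primary granule genes could be compared. Of these 1 was 2-fold higher and none was 2-fold lower, where 14% of all genes were higher and 9.27% lower. The median log2 ratio was 0.99, with *Elane* at 1.10 against 0.577.

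Genes of the secondary granule list not used by the rule were 2-fold lower in 10 of 13 and higher in none. The median was -2.16, and -2.56 against the immature cells with no cycling UMI and an S100 sum of at least 500. The leukotriene B4 receptor *Ltb4r1* was on that list and among the 10. *Lcn2*, an iron-sequestering lipocalin, was at 30.7 against 138 (-2.16), *Cd177* at 2.94 against 14.3 (-2.28), and *Cybb*, the catalytic subunit of the oxidase, at 2.32 against 18.6 (-3.01). *Mmp8*, neutrophil collagenase, was at 19.9 in the summed immature cells and level with that in the summed mature cells (log2 ratio 0.0081, -0.02 to 0.03). Its highest class value, 32.2, was in the intermediate cells. The level sums did not hold for the median cell, which had *Mmp8* at 12.6 in the mature and 37.4 in the immature class. Its log2 ratio was -1.02 against the immature cells with no cycling UMI and an S100 sum of at least 500. In cells of 2000 to 8000 UMIs it was -1.28. *Hp* had 0.44 against all immature cells. Genes of the tertiary granule list were raised in 3 of 7 and reduced in 1, which was *Cd63* (median 0.82). *Mmp9*, gelatinase B, was at 25.4 against 16.6 (0.61), and *Arg2* had 3.13. Against the immature cells with no cycling UMI and an S100 sum of at least 500, 1 of the 7 tertiary genes was raised and 2 were reduced (median 0.15). Over all genes 14% were raised and 9.27% reduced there. In cells of 2000 to 8000 UMIs 1 was raised and 1 reduced (median 0.072), beside 11.6% and 8.09% of all genes.

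Of the 8 NADPH oxidase genes 1 was raised and 2 were reduced, *Cybb* and the proton channel *Hvcn1* (-4.22), shares near the 18.2% and 24.8% of all genes. Among 7 genes of extracellular traps none was raised and 3 were reduced, *Elane*, *Mpo*, and *Cybb*, and *Padi4*, the enzyme that citrullinates histones, was at 1.98 against 1.41 (0.49). Adhesion genes went both ways, with 5 of 11 raised and 3 reduced. The P-selectin ligand *Selplg* was at 9.29 against 1.70 (2.45), while *Cd177*, *Ceacam1*, and *Itgb1* had -2.28, -1.76, and -1.52. The integrin subunits *Itgam* and *Itgb2*, which form Mac-1, had -0.47 and 0.17. Of 26 actin and motility genes 4 were raised and 1 reduced (median 0.28), with *Lsp1* at 1.71 and the abundant *Tmsb4x* at 264 against 175 UMIs per 10000 (0.59).

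Protease inhibitors and whey acidic proteins were raised in 7 of 12 and reduced in 2 (median 1.72). *Slpi*, which inhibits neutrophil elastase, was at 37.2 against 9.23 (2.01), the cystatins *Stfa2l1* and *Cstdc4* had 3.23 and 3.21, and *Wfdc21* had -1.08. In the eicosanoid pathway 4 of 9 were raised and 2 reduced, where 18.2% of all genes were raised and 24.8% reduced. *Ptgs2*, the inducible cyclooxygenase, was at 1.56 against 0.226 (2.78), whereas the constitutive *Ptgs1* had -2.63, and *Alox5ap*, needed for leukotriene synthesis, had 0.94. Iron genes were raised in 5 of 9 and reduced in 3, with *Fth1* at 51.3 against 12.2 (2.08) and the transferrin receptor *Tfrc* at -2.09.

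Glycolysis genes were raised in 4 of 16 and reduced in 2 (median -0.30), where 18.2% of all genes were raised and 24.8% reduced, and in cells of 2000 to 8000 UMIs 1 of the 16 was raised and 1 reduced. The raised ones were the transporters *Slc2a1*, *Slc2a3*, and *Slc16a3* and the regulator *Pfkfb4*, with log2 ratios from 1.40 to 2.03, and the reduced ones the enzymes *Tpi1* (-1.55) and *Pgam1* (-1.35). Hypoxia genes were raised in 4 of 9 and reduced in 2 (median 0.14, and 1.37 over 7 genes against the immature cells with no cycling UMI and an S100 sum of at least 500). Of 9 measured factors described in fracture repair, *Il1b* and *Osm* were raised and *Spp1*, *Fn1*, and *Thbs1* were reduced. These last 3 were at 40.4, 104, and 4.77 UMIs per 10000 in mesenchymal cells, and in mature neutrophils at 0.403, 0.827, and 0.210. *Vegfa* was at 0.189 in mature and 0.310 in immature cells, and *Tgfb1* at 0.657 and 0.691.

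Cell cycle genes were 2-fold lower in all 17 measured (median log2 ratio -4.40), after cells with *Mki67* or *Top2a* UMIs had been kept out of the mature class by the rule and 33.0% of the immature cells had such a UMI. *Ube2c*, a ubiquitin-conjugating enzyme of mitosis, was at 0.0922 against 4.29 (-5.54) and *Stmn1*, a microtubule regulator, at 0.207 against 4.05 (-4.29). Against the 1951 immature cells without such UMIs and with an S100 sum of at least 500, 4 of these genes could be compared, none was 2-fold lower, and the median was -0.09. *Ube2c* then had a log2 ratio of 0.38, *Stmn1* 0.55, *Tuba1b* 0.73, and *Hist1h1b* 1.39, and *Nucks1* had -0.08. The granule and maturation genes held in that comparison, with *Fcnb* at -3.11, *Chil3* at -4.62, *Serpinb1a* at -4.07, *Lta4h* at -3.62, and *Cebpe* at -3.00. So did the raised genes, with *Wfdc17* at 4.44, *Il1b* at 4.04, *Ifitm1* at 3.88, and *Ccl6* at 3.49. In all, 611 genes were then at least 2-fold higher, 559 of them among the 918, and 406 were lower, 339 of them among the 1253 (14% and 9.27% of the genes compared). That setting changed both the S100 minimum and the cycling UMIs, and the part of each was not tested.

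The promoter of *Ube2c* is shown because the gene was among the 15 most reduced and belongs to the cell cycle list. It lies on chr2:164769679-164769978 of GRCm38.p6, plus strand, from RefSeq. Capitals mark CCAAT, the element bound by NF-Y, and TTTGAA, the core of the cell cycle homology element, on either strand.
Ube2c: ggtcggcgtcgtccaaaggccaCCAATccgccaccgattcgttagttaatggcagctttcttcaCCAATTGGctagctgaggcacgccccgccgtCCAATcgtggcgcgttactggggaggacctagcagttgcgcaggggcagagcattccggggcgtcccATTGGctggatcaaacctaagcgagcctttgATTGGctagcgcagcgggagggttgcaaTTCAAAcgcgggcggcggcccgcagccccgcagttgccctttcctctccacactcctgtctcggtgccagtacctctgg
Of 17 promoters at hand for the cell cycle list, 15 held CCAAT (88.2%) and 7 held TTTGAA (41.2%), against 37.4% and 17.9% of all promoters and 36.9% and 12.5% of those of all compared genes. None of the 17 held GAAANNGAA.

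**Figure D3:**
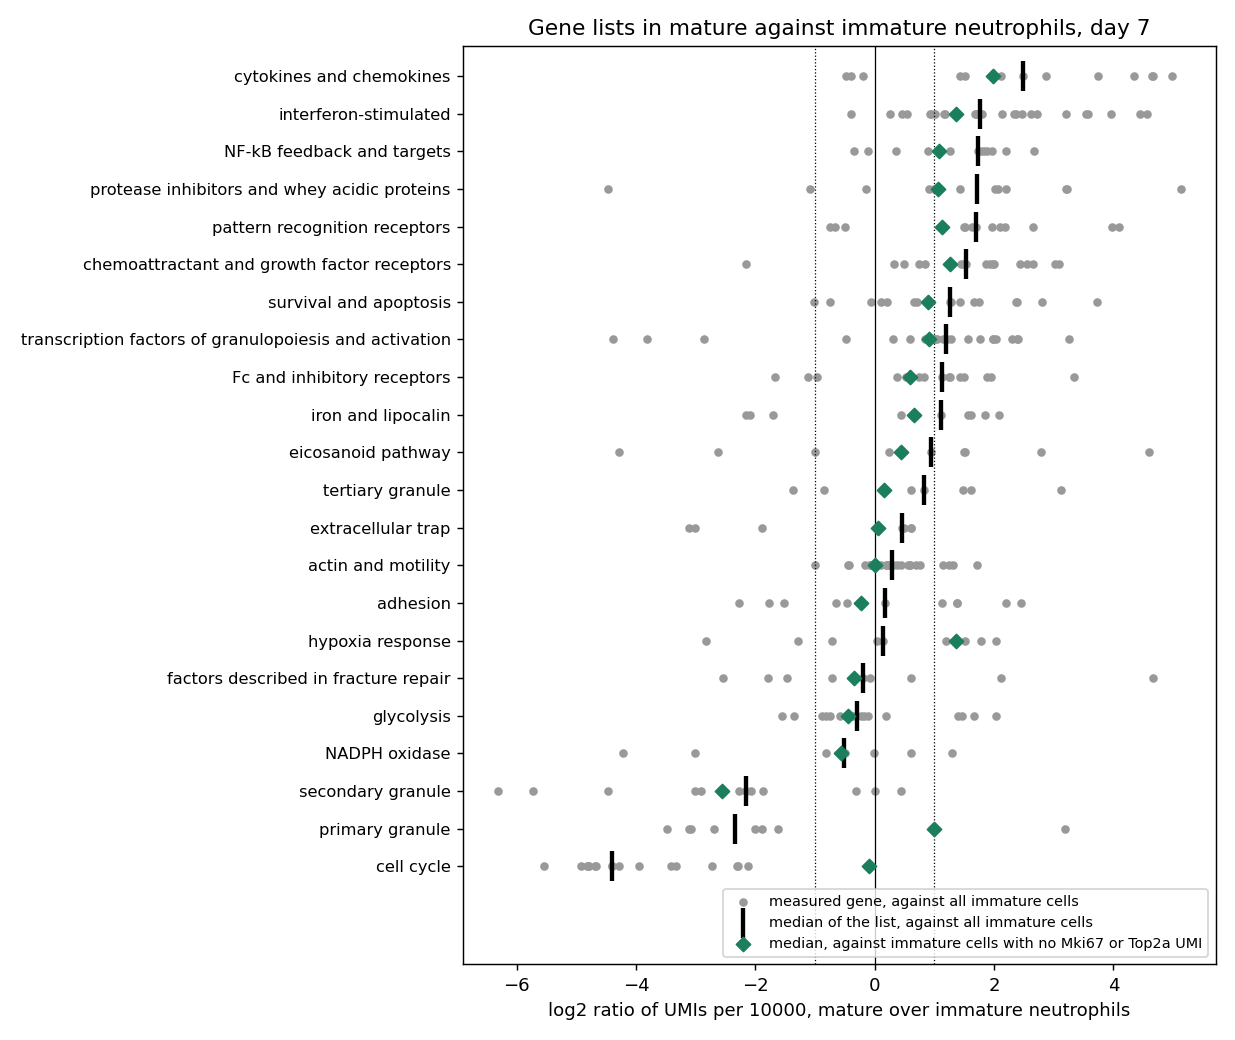
For each of the 22 gene lists, gray points give the log2 ratio of UMIs per 10000 of each measured gene, mature over immature neutrophils (x axis), black bars the list's median, and green diamonds the median against immature cells with no *Mki67* or *Top2a* UMI and an S100 sum of at least 500, while dotted lines mark 2-fold. Cytokines stand highest with a median of 2.49, and the cell cycle and primary granule medians, -4.40 and -2.34, move to -0.09 and 0.99 against those cells.

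Depth was unequal between the classes, so the comparison was also made in cells of 2000 to 8000 UMIs, 1853 mature and 1250 immature. Depth was still unequal in them, with medians of 3192 and 5918 UMIs. The immature cells kept had a median granule sum of 356, against 673 in all immature cells, and the part of each was not tested. Among the cells of 2000 to 8000 UMIs, 494 genes were at least 2-fold higher, 436 of them among the 918. Lower genes numbered 346, 264 of them among the 1253 (11.6% and 8.09% of the genes compared). The counts of the gene lists shrank as well. Raised genes were 7 of 13 for cytokines, 10 of 19 for chemoattractant receptors, 16 of 26 for interferon-stimulated genes, and 8 of 16 for survival genes. They were 6 of 13 for receptors of microbial products, 5 of 13 for the NF-kB pathway, 9 of 22 for transcription factors, 5 of 12 for protease inhibitors, and 3 of 10 for adhesion. They were 2 of 9 in the eicosanoid pathway, 2 of 8 for iron genes, and none of 26 for actin and motility. *Il1b* had a log2 ratio of 4.85 and *Wfdc17* 5.20, while *Fcnb* had -1.08.

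The levels were also read in ranges of the granule sum, which chose the classes, so they are a description. In the ranges 0 to under 5, 5 to under 10, 10 to under 20, 20 to under 100, 100 to under 500, and 500 and over, with 540, 706, 831, 1061, 1155, and 1765 cells, *Il1b* was at 14.5, 11.7, 10.7, 2.56, 0.786, and 0.341 UMIs per 10000. *Cxcr2* was at 25.1, 23.0, 23.1, 12.8, 7.67, and 2.52. *Chil3* was at 0.887, 1.48, 0.956, 2.95, 13.2, and 78.2, so among the mature ranges it had no order. The intermediate class was mixed: 966 of its cells had an S100 sum of at least 500, with *Elane* at 8.98 and *Retnlg* at 399, and the other 95 had *Elane* at 104, *Mpo* at 51.9, and the bone matrix gene *Ibsp* at 99.04.

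The mature neutrophils were not uniform. After thinning, 43 of 1353 genes had a variance of at least 2 times their mean over the 2074 cells, where counting error alone gives a ratio near 1 and the median gene had 1.07. *Retnlg* varied most, with a ratio of 16.04 and a 5th to 95th percentile of 1 to 67 UMIs in 1000, followed by *S100a9* (13.8) and *S100a8* (11.8), which the rule used. Next came the cystatins *Stfa1* (11.4), *Cstdc5* (9.44), *Cstdc4* (8.17), and *Stfa2l1* (4.77), then *Malat1* (5.34) and *Wfdc17* (4.93). *Col1a2*, with 6.01, was seen in 8.44% of the cells and is a mesenchymal gene.

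Several genes differed with the S100 level, a value that the rule used, so these levels are a description. Cells were split into 6 ranges of the summed *S100a8* and *S100a9*, chosen after the values were seen, with 178, 236, 363, 588, 530, and 182 cells from the lowest range (500 to under 1000) to the highest (3000 and over), and both genes were then left out of the totals. *Il1b* was at 34.2, 28.7, 18.4, 13.2, 8.79, and 7.18 UMIs per 10000, which is lower in each successive range (lowest over highest, log2 ratio 2.25, 2.09 to 2.42). *Fgl2* was at 12.2 in the lowest and 1.52 in the highest range (3.00), *Slfn5* at 10.7 and 2.42 (2.14), *Pla2g7* at 11.9 and 3.83 (1.64), and *Csf3r* at 28.5 and 13.5 (1.07). The cells with the least S100 RNA thus held the largest share of several of the genes that set mature cells apart from immature ones.

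Granule genes and *Retnlg* ran the other way. *Retnlg* was at 64.5, 137, 263, 424, 572, and 680 UMIs per 10000 (log2 ratio of lowest over highest -3.40). *Ly6g* was at 0.479 in the lowest and 7.96 in the highest range (-4.06), *Mmp8* at 4.01 and 40.4 (-3.33), *Cd177* at 0.731 and 6.41 (-3.13), *Lcn2* at 10.99 and 63.8 (-2.54), *Lyz2* at 20.6 and 120 (-2.54), and *Osm* at 1.21 and 4.06 (-1.75). Of 7 secondary granule genes 6 were at least 2-fold lower in the lowest range (median -2.23), as were 5 of 8 protease inhibitors. *Cxcr2*, with 31.1 and 27.1 (0.20), differed little. The 15 most raised genes did not move as a block either, since *Ccl6* was at 32.1 in the lowest and 50.5 in the highest range (-0.65) and *Cxcl2* at 4.24 and 3.67 (0.21).

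Over 654 genes with at least 2 UMIs per 10000 the median log2 ratio of the lowest over the highest range was 0.07, 43 genes were at least 2-fold higher in the lowest range and 56 at least 2-fold lower. Of the 43, 20 were among the 65 ribosomal protein genes and 23 were not. Of the 56, 44 were higher in each successive range, and of the 43, 21 were lower in each. Depth moved with the S100 level, since the median went from 2212.5 UMIs in the lowest range to 4054 in the highest, and the median ribosomal share went from 5.98% to 2.95%. The median granule sum did not, with 8.91 and 9.12. Within cells of 2000 to under 3000 UMIs, *Il1b* was at 34.5, 21.5, and 17.9 and *Retnlg* at 91.7, 252, and 379 for S100 sums of 500 to under 1500, 1500 to under 2500, and 2500 and over (254, 397, and 121 cells). Within cells of 3000 to under 4000 UMIs, *Il1b* was at 23.9, 12.8, and 9.49 and *Retnlg* at 165, 395, and 568 (30, 315, and 288 cells). The order of both genes was thus the same at like depth. The part of RNA content in these levels was not tested further.

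**Figure D4:**
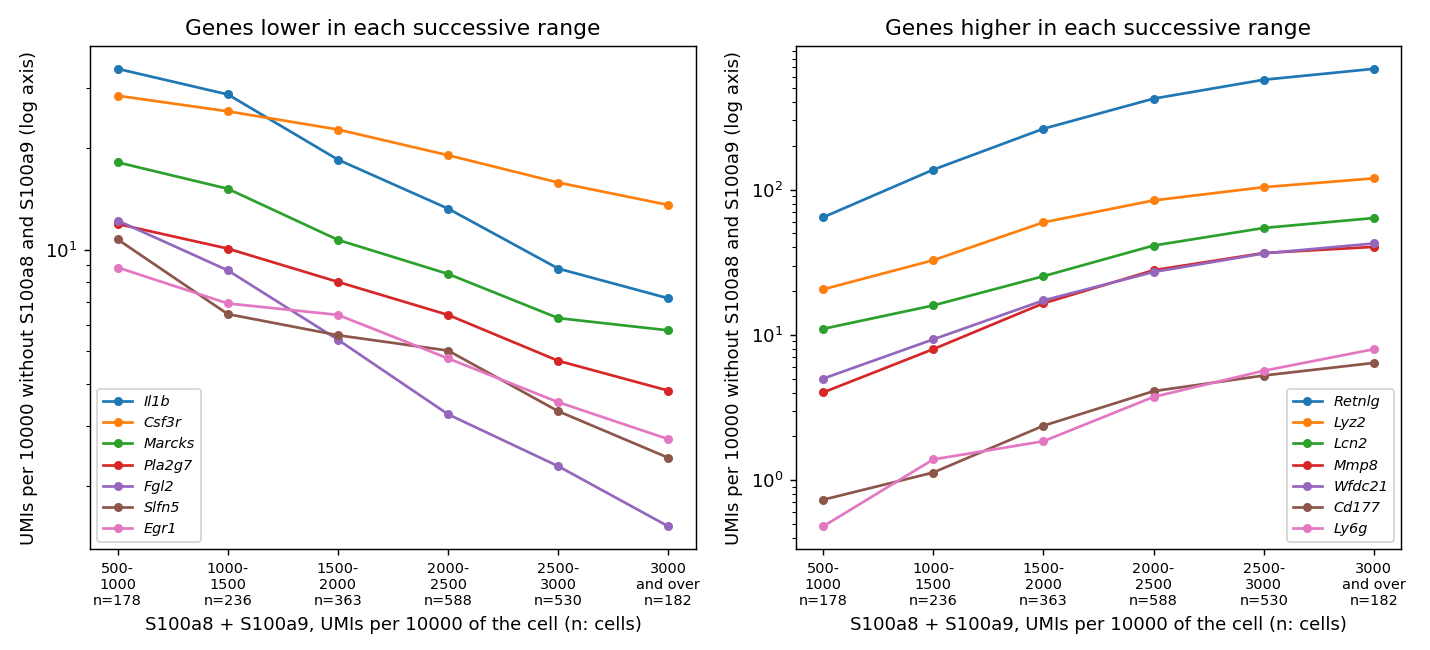
UMIs per 10000 without *S100a8* and *S100a9* (y axes, log scale) of 14 genes in 6 ranges of the S100 sum of the mature neutrophils (x axes, n: cells of the range), chosen after their values were seen. In the left panel *Il1b* goes from 34.2 to 7.18 and *Fgl2* from 12.2 to 1.52, and in the right panel *Retnlg* goes from 64.5 to 680 and *Ly6g* from 0.479 to 7.96.

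Interferon genes were unevenly spread among the mature cells. A score was taken as the summed UMIs of *Ifit1*, *Ifit3*, *Isg15*, and *Rsad2* per 10000 of all UMIs of the cell, before thinning. It was 0 in 708 of 2074 cells (34.1%), and in 1238 (59.7%) the 4 genes had no UMI after thinning to 1000. The 207 cells with the highest score had at least 25.1 per 10000. This is a range of a score and not a cell type, and 127 cells lay within 20% of that lower limit. In the 207 cells 28 of 773 genes outside the score were at least 2-fold higher than in the others, by thinned UMIs, and 3 were lower. The plot of these genes shows the highest, *Gbp2* at 2.85 against 0.230 per 10000 (log2 ratio 3.63), *Ifit3b* (2.83), *Cmpk2* (2.81), *Oasl1* (2.74), *Usp18* (2.68), and *Irgm1* (2.66), and also *Plac8* (2.30), *Isg20* (2.09), *Slfn5* (1.98), and *Irf7* (1.88). Of the 16 interferon list genes that could be compared outside the score, 12 were among the 28. The 3 lower genes were *Ly6g* (-1.0), *Cd177* (-1.04), and *G0s2* (-1.23). The high-score cells had a median of 2682 UMIs and an S100 sum of 1925, against 3143 and 2277 in the others.

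**Figure D5:**
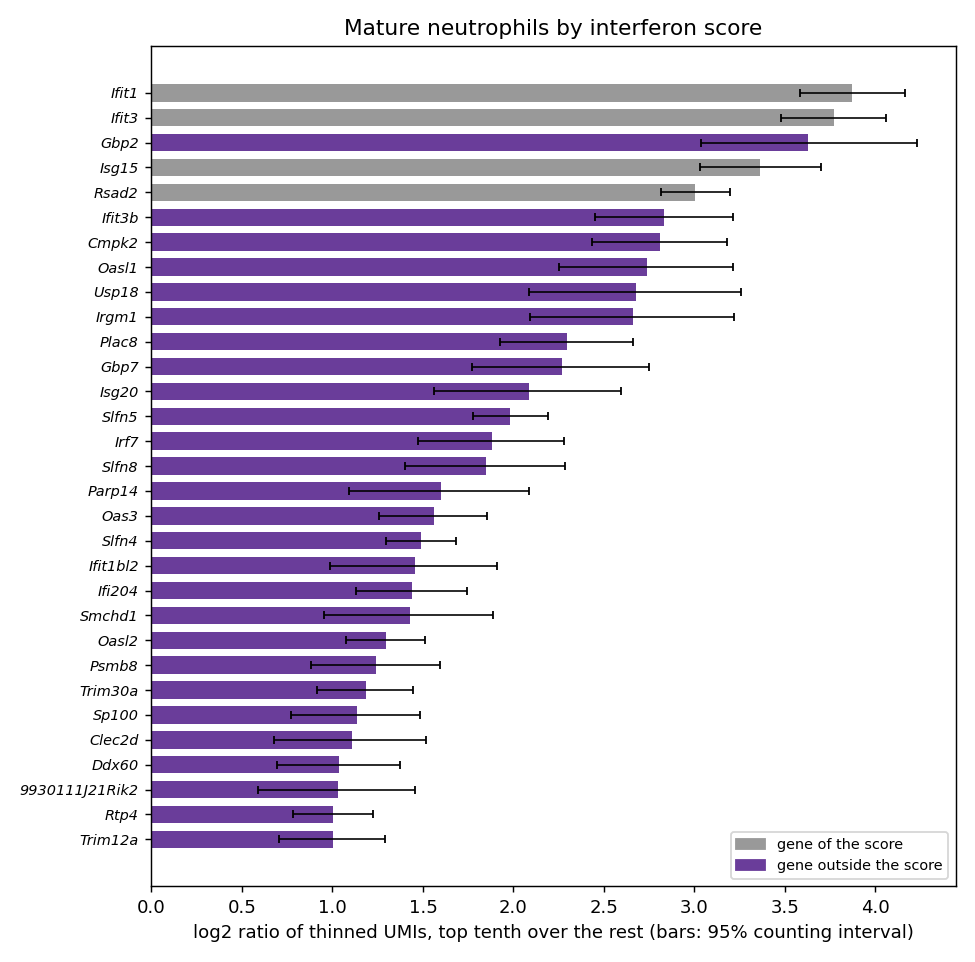
Log2 ratio of thinned UMIs in the 207 mature neutrophils with the highest interferon score over the other mature neutrophils (x axis), for the 4 genes of the score (gray) and 27 of the 28 genes outside it that were at least 2-fold higher (purple), with 95% counting intervals. *Gbp2* leads the genes outside the score with 3.63, and *Rtp4* and *Trim12a* are the lowest with 1.00.

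A score of *Ccl3*, *Ccl4*, *Cxcl2*, and *Tnf* was taken in the same way. It was 0 in 1144 cells (55.2%), and 1504 (72.5%) had no UMI of these genes after thinning. Between the 207 highest cells and the others 1 of 756 genes outside the score was at least 2-fold higher, *Ptgs2* (1.07), and 1 was lower, *Cstdc5* (-1.97). Of the cytokine list, 4 genes could be compared outside the score, against 16 for the interferon score, and none was 2-fold higher. *Il1b* was at 22.2 in the highest cells and 13.1 per 10000 in the others (log2 ratio 0.76, 0.61 to 0.90) and *Osm* at 2.90 and 2.15 (0.43, 0.012 to 0.82). *Nfkbia*, the inhibitor of NF-kB, had 0.94 (0.58 to 1.28).

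The cystatin *Stfa1* was seen in 262 of the thinned cells (12.6%), with a median of 4 UMIs in those and up to 33. Beside *Stfa1* itself, 5 of 719 genes were at least 2-fold higher in these cells, namely its neighbors *Stfa2* (2.08) and *Cstdc5* (1.77), the collagens *Col1a1* (1.49) and *Col1a2* (1.22), and *Chil3* (1.14), and none was lower. The collagens rested on few counts, 64 and 56 thinned UMIs in the 262 cells. Doublets were not removed, and whether a few collagen-rich cells gave these ratios was not tested. *Stfa1* (chr16:36276951-36285373), *Stfa2* (chr16:36403992-36408457), *Stfa2l1* (chr16:36156811-36161953), and *Cstdc4* (chr16:36184212-36188111, all GRCm38) lie in 1 cluster of closely related genes, so the split of reads among them is uncertain.

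The same rule found 2 cells at day 10 and 20 at day 14, of 7334 and 10813 cells within the limits (0.0273% and 0.185%). Immature cells numbered 2 and 109. The mature cells were therefore described at day 7, and no comparison was made at day 14, where fewer than 50 met the rule. The sort, the digest, and 1 library per day cannot be told apart from the day. Between day 7 and the other libraries 29 and 42 barcodes were shared, of which 7 and 9 were those of mature neutrophils.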

How the data were processed

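The deposited files hold whole UMI counts per gene and cell for each library, with 32285 genes, and the authors had applied no normalization. Reads were aligned and UMIs collapsed by the authors with Cell Ranger. The labels give version 3.0 and the build mm10, the file header gives 3.1.0, and the paper gives other kit and software versions, so the version is uncertain. Chemistry was 3′ end counting. Ratios were taken within each gene, and the ranking by abundance and the sums over markers are in UMIs. Cells with at least 500 genes, at most 10% mitochondrial UMIs, and at most 5% hemoglobin UMIs were kept. The paper also gives an upper limit on genes per cell, which was applied here only as an alternative setting. The median cell within these limits had 6015.5 UMIs at day 7, 18320 at day 10, and 16765 at day 14. Deposited doublets were not removed.

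The members and the gene lists were chosen with earlier results of these data known. UMIs were summed over the cells of a class and given per 10000, with exact Poisson intervals, and ratios with exact binomial intervals (95%). No prior count was added. Genes at 0.2 or more per 10000 in either class were compared, genes of the rule were left out, and called means at least 2-fold. The text names the 15 genes with the largest and the 15 with the smallest ratio among those at 2 or more per 10000 in the higher class, the 15 most abundant, the 10 most variable, and members of the fixed lists. Genes named for the S100 ranges, the 2 scores, and the cells with *Stfa1* were chosen after their values were seen. A few list members are not reported here by name, though the counts and medians of their lists include them. Shares of cells were taken after thinning to 1000 UMIs, which left out 3 mature and 7 immature cells. The seed was 1000, and for the cells with *Stfa1* it was 0. Mesenchymal cells (at least 100 UMIs per 10000 of 4 collagen genes) and B lineage cells (at least 5 of *Cd79a* and *Cd79b*), both outside the neutrophil classes, gave the level that free RNA can reach. Gene positions are from the GENCODE M21 annotation of GRCm38 and promoters from RefSeq. Python 3.11.15, numpy 2.4.6, scipy 1.17.1, pandas 2.3.3, and scanpy 1.11.5 were used. The arithmetic of the ratios and their counting intervals was tested on simulated counts that held no differences between the cells of a class.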

Additional observations from a re-analysis of the deposited data

Results flagged for a closer look

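Cells that met the rule outside the described class were noted. At day 14, 20 cells within the limits met it, above the 2 at day 10, and they enter no comparison. In the day 7 library, 21 of the 664 cells with fewer than 500 genes met the rest of the rule and were left out of the 2077 by the limit on genes.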

How the results depend on the processing

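With 1 library per day there is no test, and counts of genes with a 2-fold difference move with the setting. With the granule sum under 10 there were 1246 mature cells. The 918 higher and 1253 lower genes became 611 and 406 against immature cells with an S100 sum of at least 500 and no cycling UMI, 480 and 283 with a floor of 1 UMI per 10000, and 2520 and 4686 with a floor of 1 UMI in both classes. The lower genes became 693 with a mean over cells and 1952 with the 5 genes *S100a8*, *S100a9*, *Ngp*, *Camp*, and *Ltf* left out of the total, which moved the median of all genes to -0.37, and the higher genes became 1443 at a fold of 1.5. Chosen after the data were seen, UMIs per cell gave 93 and 4063, and cells of 2000 to 8000 UMIs gave 494 and 346.

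The 15 most raised genes stayed at least 2-fold higher in all 14 settings that leave counts as shares, with log2 ratios from 2.32 to 5.31. For the 15 most reduced, 193 of 210 values over these settings were at least 2-fold lower. Another 6 were lower by less than 2-fold, and 11 were reversed. Of the 15 most reduced, 9 reversed against immature cells with an S100 sum of at least 500 and no cycling UMI, namely *Cenpf* (0.086), *Ube2c* (0.38), *Hist1h2ae* (0.25), *Pclaf* (0.87), *Hist1h1b* (1.39), *H2afx* (0.24), *Stmn1* (0.55), *Tuba1b* (0.73), and *Hist1h2ap* (0.70), as did the primary granule median (0.99). In cells of 2000 to 8000 UMIs *Hist1h1b* (0.70), *Hist1h2ap* (0.0077), and the primary granule median (0.56) reversed. The first of these settings leaves out by construction immature cells with cycling UMIs and those with an S100 sum under 500, and the part of each was not tested. For the other the cause was not tested. No paired analysis was possible because each day has 1 library. Scrublet marked 0 of 8178 cells, which is too few to have worked, so doublets were not removed. Depth limits the genes under 0.2 UMIs per 10000, which were not compared.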
